A study of Homo sapiens with 4 samples.

Results

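The dual-specificity phosphatase (DUSP) genes described here are 10 genes for phosphatases that act on MAP kinases, DUSP1, DUSP2, DUSP4, DUSP5, DUSP6, DUSP7, DUSP8, DUSP10, DUSP14 and DUSP16. They were found as all probe sets whose single gene symbol in the platform annotation was 1 of these names, which gave 22 of 54675 probe sets. As genes, these are 10 of 19775 with a probe set of 1 symbol. The RNA came from the human T cell leukaemia line Jurkat, an established cell line, on 4 single-colour oligonucleotide arrays, 1 per group. The groups were cells carrying a hairpin against IKKε, a kinase of NF-κB and interferon signalling (the shIKKE line), after 3 h with 10 ng/ml PMA and 0.5 uM ionomycin, the same line after 3 h with solvent, cells with a control construct (the control line) with PMA and ionomycin, and the control line with solvent. PMA, a phorbol ester, switches on protein kinase C, while ionomycin carries calcium across the membrane, a combination (here called stimulation) that stands in for the T cell receptor signal. The titles call the construct of the control line a vector and the design text calls it a control hairpin. The labels do not say whether a line is 1 clone.

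MAP kinases (ERK, JNK and p38) are switched on by phosphorylation of a threonine and a tyrosine in one loop, and the DUSP phosphatases remove both phosphates. Several DUSP genes are themselves switched on by MAP kinase signalling, so that they work as negative feedback. The family falls into nuclear, inducible members (DUSP1, DUSP2, DUSP4 and DUSP5), cytoplasmic members that prefer ERK (DUSP6 and DUSP7), members that act mainly on JNK and p38 (DUSP8, DUSP10 and DUSP16) and small atypical enzymes without the MAP kinase binding domain (DUSP14). In T cells, phorbol ester activates the RAS to ERK branch through RASGRP1 and protein kinase C.

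Each value is a MAS5 signal, a scaled intensity in arbitrary units, and can be compared between arrays for 1 probe set but not between probe sets. Differences are on the scale of log2(signal + 14.1), which understates the change of dim probe sets, and a probe set is called past the filter where its highest signal reached 56.4, the median of all signals. Of the 22 DUSP probe sets, 18 were past the filter, and each of the 10 genes kept at least 1. A gene is represented by its brightest probe set. With 1 array per group no difference between arrays has a replicate error, so differences are given as values and compared with 2-fold. The median signal of an array was 69.1 with stimulation and 49.7 with solvent in the shIKKE line and 59.8 with stimulation and 48.8 with solvent in the control line, with the higher value on the stimulated array of each line. The ratio of the 5' to the 3' ACTB control probe set was 0.27 with stimulation and 0.34 with solvent in the shIKKE line. In the control line it was 0.40 with stimulation and 0.24 with solvent. The same ratio for GAPDH lay between 1.04 and 1.17 on the 4 arrays. The bearing of these ratios on the differences was not tested. The summed signal of 11 T cell markers lay between 73436 and 83997 on the 4 arrays, against 346 to 584 for 4 B cell markers 88.4 to 224 for 4 myeloid markers, among which CD14 reached at most 8.1, and 95.2 to 168 for 3 erythroid and epithelial markers. Signals are of all cells of a sample, so that fewer cells with a transcript and less of it per cell cannot be told apart. By its brighter probe set, the targeted gene IKBKE had 248 in the shIKKE line and 520 in the control line with stimulation (log2 -1.03), and 180 in the shIKKE line and 340 in the control line with solvent (log2 -0.87). A dimmer IKBKE probe set gave log2 differences of -0.15 with stimulation and 0.38 with solvent, so with solvent its probe sets pointed in opposite directions.

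The solvent arrays of the lines differed in some genes of the early response. EGR1 read 18503 with stimulation and 1035 with solvent in the shIKKE line. In the control line it read 23198 with stimulation and 9953 with solvent, so that shIKKE solvent was its low array. FOSB read 302 with stimulation and 7.4 with solvent in the shIKKE line, and 272 with stimulation and 1364 with solvent in the control line. Its solvent value was thus the higher one in the control line and the lower one in the shIKKE line. The response of each line rests on its own solvent array, and the differences between the lines with solvent rest on both. The part of either array in them was not tested.

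The first question was what stimulation did to the DUSP genes in each line. DUSP5 and DUSP2 were at least 4-fold higher in both lines and had the 2 largest differences in the shIKKE line. DUSP4 was also at least 2-fold higher in both. In the control line DUSP5 had the largest difference, and the order of DUSP2 and DUSP4 depends on the pseudocount. Their log2 differences there were 2.24 and 2.02, and 2.24 and 2.68 with a pseudocount of 1. In the shIKKE line DUSP6 and DUSP8 were at least 2-fold higher, and they were less than 2-fold higher in the control line by their brightest probe sets, which for DUSP8 depends on the pseudocount (log2 0.99, and 1.10 with a pseudocount of 1). The DUSP8 difference in the control line was 0.70 with quantile normalization and -0.06 with the median of probe sets, so its direction depends on the probe set. DUSP10 was higher with stimulation in the shIKKE line and lower in the control line, and DUSP1 was lower in both. DUSP7, DUSP14 and DUSP16 stayed within 2-fold. Of the 10 genes, 5 passed 2-fold upward and 0 downward in the shIKKE line, where 10.3% of the 13717 genes past the filter were higher and 2.68% lower. In the control line 3 of 10 were higher and 1 lower, where 7.57% of all genes were higher and 6.44% lower. The higher genes of both lines include DUSP4, which passed the filter through stimulated arrays alone. The median of the 10 log2 differences was 1.11 in the shIKKE line and 0.43 in the control line, beside medians of -0.01 and -0.07 over all genes. With shIKKE solvent as the baseline in place of its own, the stimulated control line had 5 of 10 higher and 0 lower. DUSP10 was then 0.36, DUSP6 1.70, DUSP2 4.13 and DUSP5 5.96 on the log2 scale, values that include the difference between the lines.

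**Figure D1:**
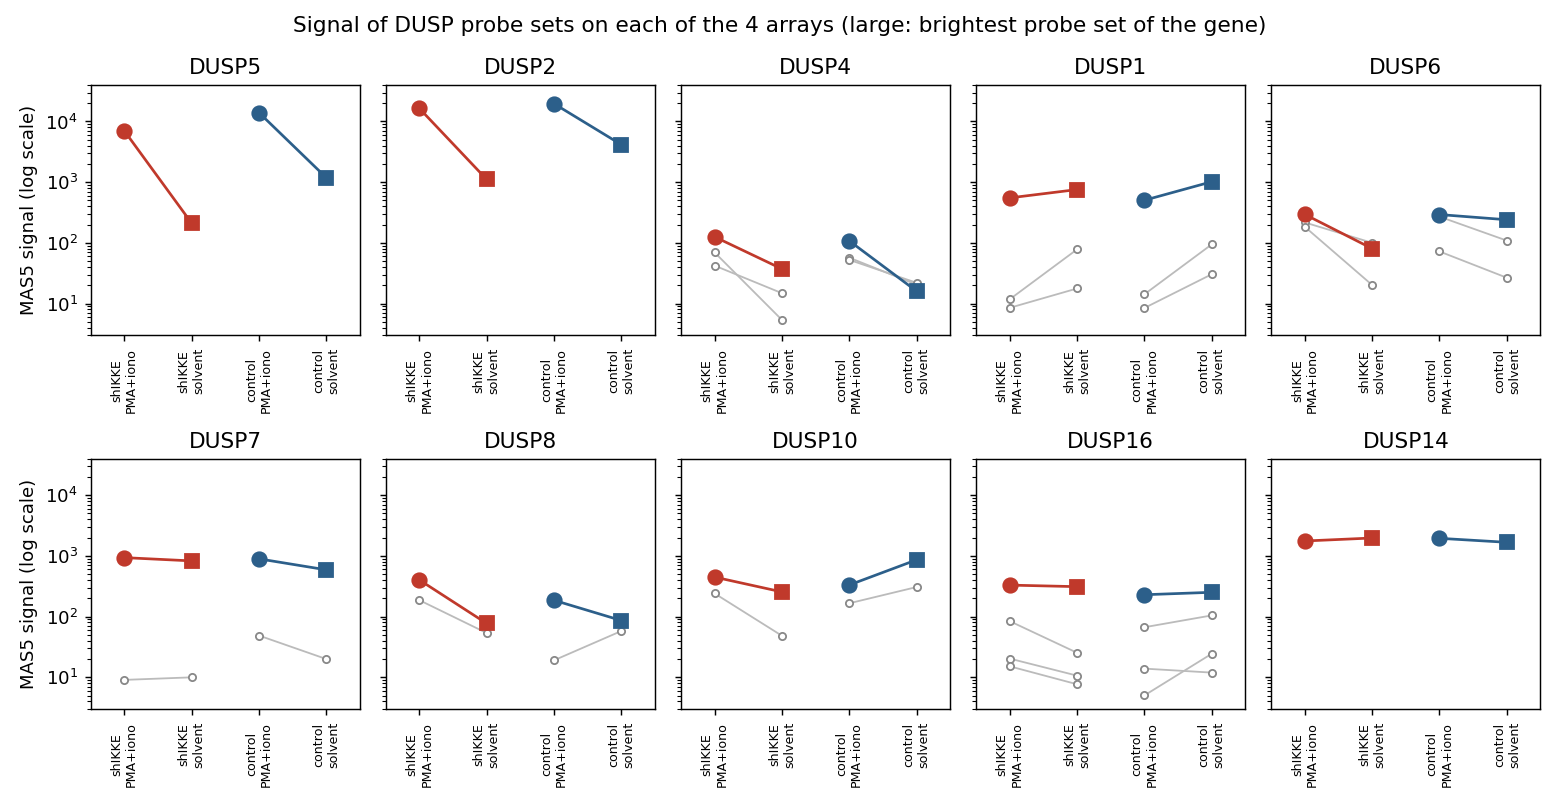
MAS5 signal (vertical axis, log scale, arbitrary units) of all 22 DUSP probe sets on the 4 arrays, with the shIKKE line in red, the control line in blue, circles for PMA and ionomycin and squares for solvent. Large symbols are the brightest probe set of each gene and small open symbols the others, and lines join the arrays of 1 cell line. DUSP5 and DUSP2 stand at 7043 and 16419 in the stimulated shIKKE line and at 14032 and 19612 in the stimulated control line, each above both of its solvent values, while DUSP14 stays between 1676 and 1973.

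Among the nuclear, inducible members, DUSP5, a phosphatase selective for ERK, read 7043 with stimulation and 212 with solvent in the shIKKE line. The control line gave 14032 with stimulation and 1187 with solvent. Both stimulated arrays were above both solvent arrays, and the control line was higher than the shIKKE line in either treatment. The log2 differences were 4.96 in the shIKKE line and 3.55 in the control line. DUSP2, first known as a phosphatase of activated T cells, read 16419 with stimulation and 1108 with solvent in the shIKKE line. In the control line it read 19612 with stimulation and 4147 with solvent. The stimulated arrays lay close together and the solvent arrays apart, with log2 differences of 3.87 in the shIKKE line and 2.24 in the control line. The DUSP4 signals were dim. Its brightest probe set read 126 with stimulation and 37.3 with solvent in the shIKKE line, and 108 with stimulation and 16.0 with solvent in the control line (log2 1.45 and 2.02). Each of its 3 probe sets was higher with stimulation in both lines, with log2 differences from 0.96 to 2.11 in the shIKKE line and from 0.88 to 2.02 in the control line. These probe sets passed the filter only through stimulated arrays, so that DUSP4 adds no weight to the counts of higher genes.

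DUSP1, the phosphatase of the immediate early response, went the other way. Its brightest probe set read 551 with stimulation and 755 with solvent in the shIKKE line, and 503 with stimulation and 1015 with solvent in the control line. Both stimulated arrays were below both solvent arrays. The log2 differences were -0.45 in the shIKKE line and -0.99 in the control line, the second just short of 2-fold. A dimmer probe set of DUSP1 read 11.7 with stimulation and 78.0 with solvent in the shIKKE line and 14.2 with stimulation and 94.2 with solvent in the control line (log2 -1.83 and -1.94); it passed the filter through the solvent arrays alone. The remaining DUSP1 probe set, below the filter, read 8.5 with stimulation and 17.7 with solvent in the shIKKE line and 8.4 with stimulation and 30.4 with solvent in the control line. All 3 probe sets were therefore lower with stimulation in both lines.

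The cytoplasmic, ERK-selective pair differed. DUSP6, a feedback inhibitor of ERK, read 294 with stimulation and 80.4 with solvent in the shIKKE line by its brightest probe set. The same probe set in the control line read 293 with stimulation and 240 with solvent. The solvent array of the shIKKE line was the low one and the other 3 lay close together, which gave log2 differences of 1.70 in the shIKKE line and 0.27 in the control line. The other DUSP6 probe sets had a larger difference in the control line. One read 217 with stimulation and 100 with solvent in the shIKKE line and 270 with stimulation and 109 with solvent in the control line (log2 1.01 and 1.21). The other read 184 with stimulation and 20.2 with solvent in the shIKKE line and 72.1 with stimulation and 26.6 with solvent in the control line (log2 2.53 and 1.08). All 3 were higher with stimulation in both lines. DUSP7 read 937 with stimulation and 828 with solvent in the shIKKE line and 895 with stimulation and 590 with solvent in the control line (log2 0.18 and 0.59). Its second probe set stayed below the filter, with a highest signal of 48.8.

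Among the members directed at JNK and p38, DUSP8 read 402 with stimulation and 77.1 with solvent in the shIKKE line. The control line gave 186 with stimulation and 86.2 with solvent. The stimulated shIKKE array was the highest of the 4, and the log2 differences were 2.19 in the shIKKE line and 0.99 in the control line. A second DUSP8 probe set read 186 with stimulation and 53.6 with solvent in the shIKKE line and 19.1 with stimulation and 57.9 with solvent in the control line (log2 1.57 and -1.12), so that the probe sets of DUSP8 disagreed in the control line. DUSP10, which in mouse T cells restrains JNK, read 448 with stimulation and 255 with solvent in the shIKKE line. In the control line it read 331 with stimulation and 861 with solvent. The solvent array of the control line was the highest and that of the shIKKE line the lowest, with log2 differences of 0.78 in the shIKKE line and -1.34 in the control line. A second DUSP10 probe set had the same order of arrays, at 241 with stimulation and 48.4 with solvent in the shIKKE line and 166 with stimulation and 307 with solvent in the control line (log2 2.03 and -0.84). Opposite directions with at least 2-fold in 1 line were found for 6.78% of all genes and 7.17% of all named probe sets past the filter, beside 1 of the 10 DUSP genes and 4 of their 18 probe sets. DUSP16 read 330 with stimulation and 312 with solvent in the shIKKE line and 229 with stimulation and 251 with solvent in the control line (log2 0.08 and -0.13). A second DUSP16 probe set read 84.2 with stimulation and 25.4 with solvent in the shIKKE line and 66.8 with stimulation and 105 with solvent in the control line (log2 1.32 and -0.55), and the remaining 2 stayed below the filter, with highest signals of 24.4 and 15.2.

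DUSP14, the atypical member, for which a role as a brake on T cell receptor signalling is known from mouse T cells, varied least over the arrays. It read 1761 with stimulation and 1973 with solvent in the shIKKE line and 1950 with stimulation and 1676 with solvent in the control line (log2 -0.16 and 0.22).

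**Figure D2:**
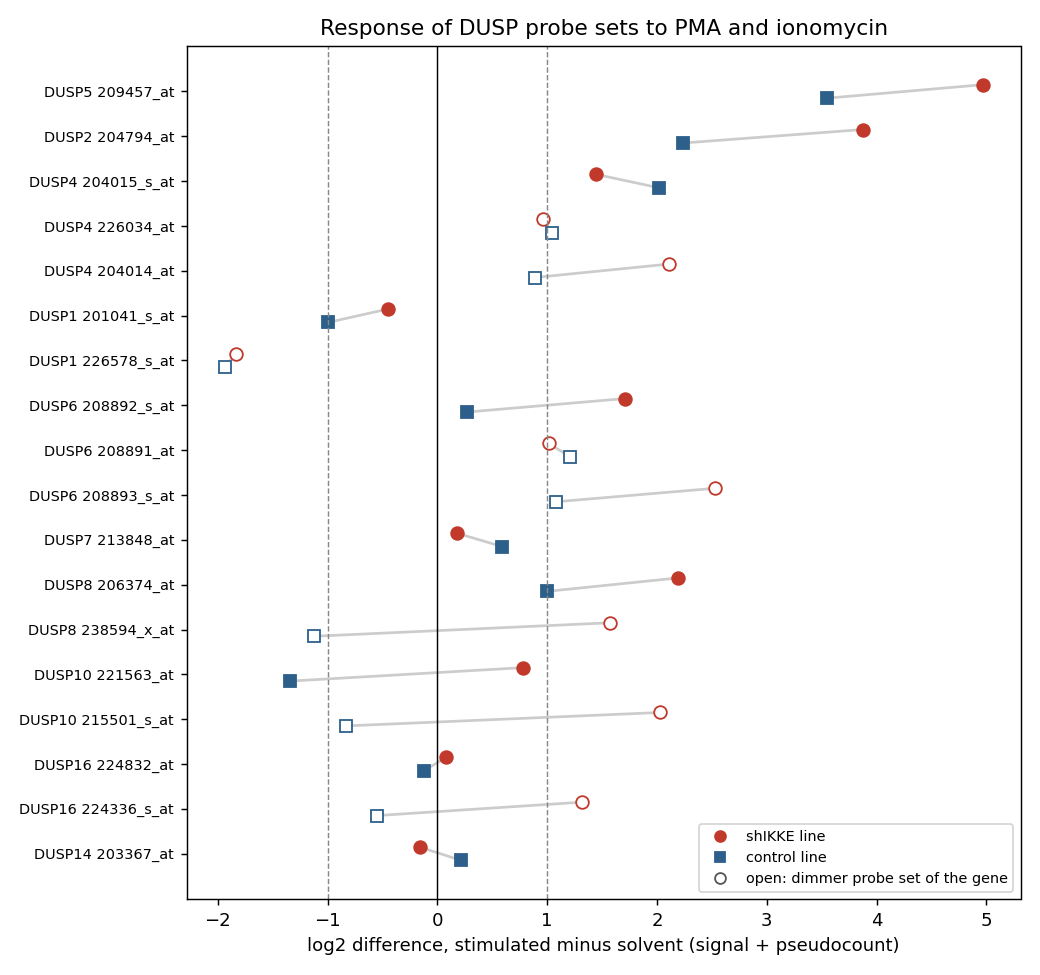
Log2 difference of stimulation minus solvent (horizontal axis, signal + pseudocount) for the 18 DUSP probe sets past the filter, with red circles for the shIKKE line, blue squares for the control line, filled symbols for the brightest probe set of a gene and dashed lines at 2-fold. DUSP5 and DUSP2 lie far to the right in both lines, both DUSP1 probe sets lie left of 0, and both DUSP10 probe sets have the shIKKE line right of 0 and the control line left of it.

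At the level of probe sets, 11 of 18 past the filter were at least 2-fold higher and 1 lower in the shIKKE line, where 11.4% of all named probe sets past the filter were higher and 3.17% lower. In the control line 6 were higher and 3 lower, where 10.1% were higher and 6.38% lower. The 3 DUSP4 probe sets and the dimmest DUSP6 probe set reached the filter on stimulated arrays alone and so had to be higher with stimulation in at least 1 line. They make up 3 of the higher probe sets in each line. Of the 13 that reached it in both treatments, 8 were higher and 0 lower in the shIKKE line, and 3 were higher and 2 lower in the control line. Of the 6 genes with more than 1 probe set past the filter, all 6 had probe sets of 1 direction in the shIKKE line and 5 in the control line, DUSP8 being the exception. At least 2-fold higher in both lines were DUSP2, DUSP4 and DUSP5, a class that holds 3.29% of all genes. DUSP4 is in it through a probe set that reached the filter on stimulated arrays alone.

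Stimulation averaged over the lines was tested with limma across all 13717 genes. The error in that additive model of line and stimulation is the difference between the responses of the lines, with 1 residual degree of freedom, and not the spread between replicates. No DUSP gene passed at an adjusted p of 0.05, where 0.00729% of all genes did. The lowest was DUSP5 (log2 4.26 ± 0.41, SE; limma, adjusted p = 0.0826), higher in both lines. DUSP2 (3.05 ± 0.45, SE) had an adjusted p of 0.132 and DUSP4 (1.73 ± 0.28, SE) of 0.14 in the same limma fit, and DUSP8 (1.59 ± 0.37, SE) of 0.204. These 4 had an unadjusted p under 0.05, as did 13.8% of all genes. DUSP4, here and in the fit below, passed the filter through stimulated arrays alone. DUSP1 (-0.72 ± 0.28, SE) had an adjusted p of 0.366 and DUSP6 (0.99 ± 0.41, SE) of 0.385 in limma, and the other 4 members of 0.565 to 0.976. With a prior variance that follows the level, 4 members passed in limma and were higher, DUSP2, DUSP4, DUSP5 and DUSP8, where 7.61% of all genes passed, but the spread in that fit is borrowed from genes of similar brightness.

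The next question was how the lines differed in each treatment. With solvent, the shIKKE line had at least 2-fold lower signals of DUSP5, DUSP2, DUSP10 and DUSP6, and no member was 2-fold higher. With stimulation, no member was 2-fold lower and DUSP8 was 2-fold higher. The share of all genes was 6.68% lower and 4.34% higher with solvent, and 2.37% lower and 5.99% higher with stimulation. The median of the 10 log2 differences was 0.10 with stimulation and -0.28 with solvent, beside 0.03 and -0.05 over all genes. The comparison with solvent shares its arrays with the responses above. A high value on the solvent array of the control line lowers both the response of the control line and the difference between the lines with solvent. A low value on the solvent array of the shIKKE line raises the response of the shIKKE line and lowers the same difference. That difference cannot be computed without either array, and the part of each was not tested.

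With solvent, DUSP5 read 212 in the shIKKE line and 1187 in the control line (log2 -2.41), and DUSP2 read 1108 in the shIKKE line and 4147 in the control line (log2 -1.89). DUSP10 read 255 in the shIKKE line and 861 in the control line (log2 -1.70, and -2.36 by its second probe set). DUSP5 and DUSP2 have 1 probe set each, so for them no probe sets could be compared. DUSP6 read 80.4 in the shIKKE line and 240 in the control line by its brightest probe set (log2 -1.43), while the other 2 gave log2 differences of -0.11 and -0.25, so the size of the DUSP6 difference rests on 1 probe set. The second DUSP16 probe set read 25.4 in the shIKKE line and 105 in the control line (log2 -1.59), while the brightest read 312 in the shIKKE line and 251 in the control line (log2 0.29). The DUSP4 probe sets also differed in direction, from -0.89 to 0.77 on the log2 scale, at signals of at most 37.3. Over probe sets, 6 of 18 were at least 2-fold lower and 0 higher, where 6.4% of all were lower and 5.26% higher.

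With stimulation, the lines were closer for these 4 genes. DUSP2 differed by -0.26 and DUSP10 by 0.42 on the log2 scale, and DUSP6 by 0.01, shIKKE over control. DUSP5 kept the widest gap of the 4, at 7043 in the shIKKE line and 14032 in the control line (log2 -0.99, just short of 2-fold). DUSP8 read 402 in the shIKKE line and 186 in the control line (log2 1.06), and its second probe set read 186 in the shIKKE line and 19.1 in the control line (log2 2.60). One dimmer DUSP6 probe set was also higher, at 184 in the shIKKE line and 72.1 in the control line (log2 1.20). Over probe sets, 3 of 18 were at least 2-fold higher and 0 lower, where 5.65% of all were higher and 2.73% lower.

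**Figure D3:**
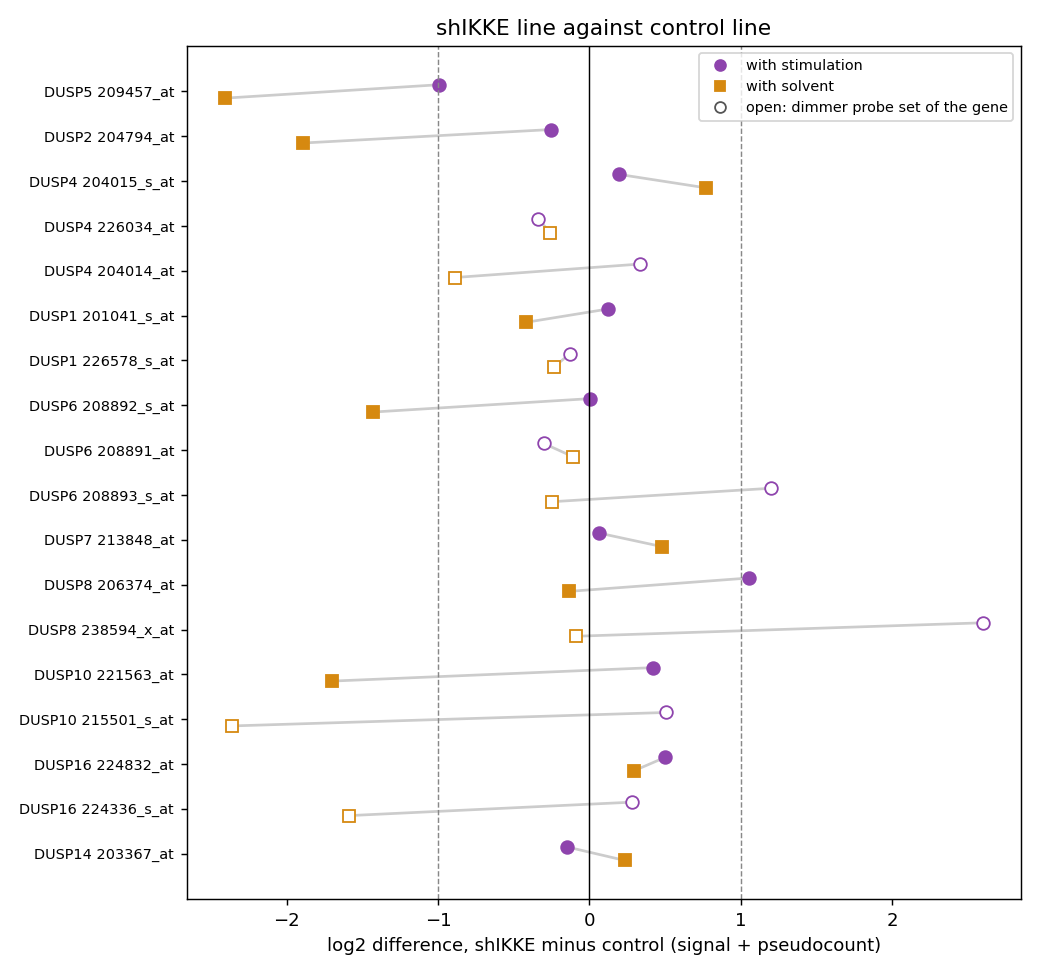
Log2 difference of the shIKKE line minus the control line (horizontal axis, signal + pseudocount) for the 18 DUSP probe sets past the filter, with purple circles for stimulation, orange squares for solvent, filled symbols for the brightest probe set and dashed lines at 2-fold. With solvent DUSP5 (-2.41), DUSP2 (-1.89), DUSP10 (-1.70) and DUSP6 (-1.43) lie left of -1, and with stimulation the brightest probe set of DUSP8 (1.06) lies right of 1.

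Averaged over treatments, no DUSP gene differed between the lines at an adjusted p of 0.05 in limma, as 0.0% of all genes did. DUSP5 had the lowest adjusted p (log2 -1.70 ± 0.41, SE; limma, adjusted p = 0.564), lower in the shIKKE line in both treatments, and was the 1 member with an unadjusted p under 0.05, where 7.29% of all genes were. DUSP2 (-1.07 ± 0.45, SE) had an adjusted p of 0.69 in limma. With the prior variance following the level, DUSP2 and DUSP5 passed and were lower, where 1.69% of all genes passed.

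The other genes of the MAP kinase pathway were taken from fixed lists. Of 17 measured genes known to respond to ERK (20 listed), 14 passed 2-fold upward and 2 downward with stimulation in the shIKKE line, against 6 higher and 2 lower in the control line. Of all genes, 10.3% were higher and 2.68% lower in the shIKKE line, and 7.57% higher and 6.44% lower in the control line. FOSL1, 1 of the higher genes of both lines, passed the filter through stimulated arrays alone, so it adds no weight to these counts. The median log2 difference of the 17 genes was 2.0 in the shIKKE line and 0.69 in the control line. With solvent, 9 of the 17 were lower in the shIKKE line and 0 higher (median -1.51), and with stimulation 1 was lower and 2 higher (median -0.05). The share of all genes was 6.68% lower and 4.34% higher with solvent, and 2.37% lower and 5.99% higher with stimulation. IER3, an early stress gene, read 22167 with stimulation and 460 with solvent in the shIKKE line, and 23106 with stimulation and 2726 with solvent in the control line. PHLDA1, a gene induced through ERK, read 4008 with stimulation and 233 with solvent in the shIKKE line and 7457 with stimulation and 740 with solvent in the control line. EGR3, an early growth response factor, read 9316 with stimulation and 104 with solvent in the shIKKE line and 4009 with stimulation and 4526 with solvent in the control line. By their brightest probe sets, all 3 were lower in the shIKKE line than in the control line with solvent. A dimmer PHLDA1 probe set was higher there (log2 0.29), and its other dimmer ones were lower (log2 -0.24 to -1.13).

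Most genes of the cascades themselves stayed within 2-fold. Of 11 measured RAS to ERK genes (17 listed), 1 passed 2-fold upward in the shIKKE line and 1 downward in the control line, in both cases the RAS inhibitor gene NF1, whose signals were at most 208. NF1 passed the filter through the solvent array of the control line alone, so it had to be lower with stimulation there. Its signals in the shIKKE line, 49.7 with stimulation and 17.3 with solvent, were both below the filter. RASGRP1, the RAS activator downstream of phorbol ester, read 2652 with stimulation and 3369 with solvent in the shIKKE line and 2811 with stimulation and 4560 with solvent in the control line (log2 -0.34 and -0.70). Of 15 measured JNK and p38 genes (18 listed), 2 were higher in the shIKKE line and 1 in the control line. MAP3K8, a kinase best known for switching on the ERK branch, was higher in both, at 757 with stimulation and 66.0 with solvent in the shIKKE line and 309 with stimulation and 34.2 with solvent in the control line (log2 3.27 and 2.75). The other was MAPK12 in the shIKKE line, at 67.6 with stimulation and 13.0 with solvent. It passed the filter through that stimulated array alone, and its other probe sets, below the filter, had log2 differences of -0.04 and 0.12 there.

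Phosphatases outside the 10 genes mostly stayed within 2-fold as well. Of 8 measured other phosphatases of MAP kinases (10 listed), PTPN7, a tyrosine phosphatase of lymphocytes that acts on ERK and p38, was higher in both lines, at 7999 with stimulation and 3354 with solvent in the shIKKE line and 7012 with stimulation and 2181 with solvent in the control line (log2 1.25 and 1.68). DUSP9, the relative of DUSP6 and DUSP7, read 49.6 with stimulation and 56.6 with solvent in the shIKKE line and 41.6 with stimulation and 10.8 with solvent in the control line (log2 -0.15 and 1.16). Of 13 measured other dual-specificity phosphatases (16 listed), DUSP26 in the shIKKE line (log2 1.35) and DUSP19 in the control line (log2 1.16) were higher, with signals of at most 97.2 and 70.1, and none was lower; DUSP19 was named after its values were seen. The medians of the 2 lists were 0.13 and -0.11 in the shIKKE line and -0.12 and -0.29 in the control line.

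**Figure D4:**
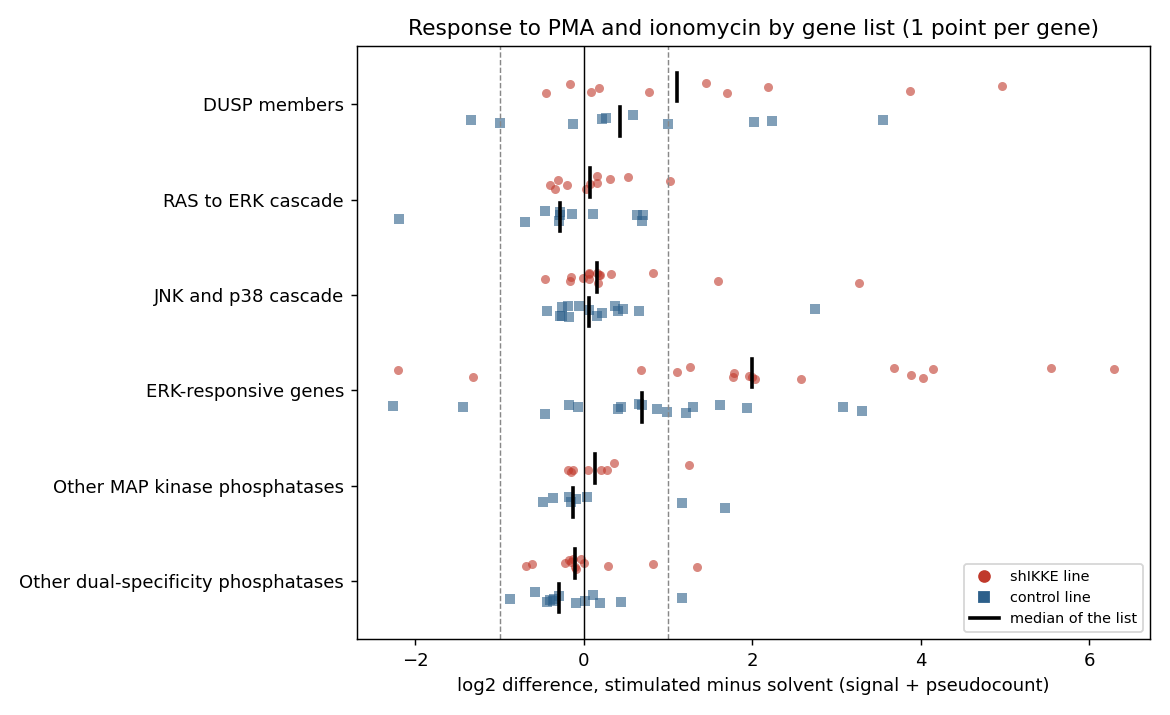
Log2 difference of stimulation minus solvent (horizontal axis, signal + pseudocount) for the 10 DUSP genes and the genes of 5 lists, 1 point per gene, with red circles for the shIKKE line, blue squares for the control line, black bars for the median and dashed lines at 2-fold. The medians of the DUSP genes are 1.11 and 0.43 and those of the ERK-responsive genes 2.0 and 0.69, in the shIKKE and the control line, and the other lists have medians between -0.29 and 0.15.

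Genes whose values followed those of a DUSP gene most closely were found for the 4 members that spanned at least 2 log2 units, by the Euclidean distance between log2 values centred on their mean over the 4 arrays. Closest to DUSP2 was SPRY4, a Sprouty inhibitor of RAS to ERK signalling (distance 0.29), at 735 with stimulation and 44.1 with solvent in the shIKKE line and 764 with stimulation and 189 with solvent in the control line. TNFRSF12A (0.52) and the phosphatase gene PTPRE (0.59) followed. Closest to DUSP5 were IER3 (0.67), PHLDA1 (0.82) and NAB2 (0.89), a corepressor of EGR factors. NAB2 read 4843 with stimulation and 214 with solvent in the shIKKE line and 5947 with stimulation and 763 with solvent in the control line. DUSP4 lay closest to UBAP1L (0.15), EXTL3-AS1 (0.17) and VMP1 (0.17), and DUSP8 to TLL2 (0.09), SPRY3 (0.15) and COX3 (0.17), at smaller spans of 2.22 and 2.19 log2 units. UBAP1L, EXTL3-AS1 and VMP1, like DUSP4, passed the filter through stimulated arrays alone. TLL2 (71.4) and SPRY3 (65.6) passed it through the stimulated shIKKE array alone. The filter thus selected such genes for being high with stimulation, and their closeness adds no weight. The distances rest on 4 arrays and describe only these.

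Promoter sequences are shown for DUSP2 and DUSP8, which were higher with stimulation by their brightest probe sets, and DUSP1, which was lower. The second DUSP8 probe set was lower with stimulation in the control line. These 3 genes and the motifs were chosen after the values and the matches were seen, so the matches are given as a description. Of the 10 genes, 8 matched an entry of the RefSeq promoter table (build GRCh38.p14, 250 bases before to 50 after the start of the gene). The motifs searched on both strands were TGACGTCA (bound by CREB and ATF factors), TGANTCA (AP-1), GCGNGGGCG (EGR factors), CCGGAAGT (ETS factors), GGAAAA (the NFAT core) and the CArG box (serum response factor). The promoters of DUSP1 (chr5:172771146-172771445), DUSP2 (chr2:96145391-96145690) and DUSP8 (chr11:1572222-1572521), all on the minus strand, are shown with every match of these motifs in capitals.
DUSP2: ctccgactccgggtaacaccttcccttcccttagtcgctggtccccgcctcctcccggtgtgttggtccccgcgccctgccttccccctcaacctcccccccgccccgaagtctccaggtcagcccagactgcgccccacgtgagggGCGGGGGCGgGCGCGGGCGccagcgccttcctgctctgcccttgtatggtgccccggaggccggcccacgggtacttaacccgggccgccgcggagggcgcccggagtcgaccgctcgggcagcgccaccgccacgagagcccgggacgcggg
DUSP8: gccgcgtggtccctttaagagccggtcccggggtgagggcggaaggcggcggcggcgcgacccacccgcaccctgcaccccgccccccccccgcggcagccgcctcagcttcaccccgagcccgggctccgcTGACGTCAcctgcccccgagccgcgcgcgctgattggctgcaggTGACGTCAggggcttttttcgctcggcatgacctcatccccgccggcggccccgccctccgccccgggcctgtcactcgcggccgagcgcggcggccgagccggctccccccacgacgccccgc
DUSP1: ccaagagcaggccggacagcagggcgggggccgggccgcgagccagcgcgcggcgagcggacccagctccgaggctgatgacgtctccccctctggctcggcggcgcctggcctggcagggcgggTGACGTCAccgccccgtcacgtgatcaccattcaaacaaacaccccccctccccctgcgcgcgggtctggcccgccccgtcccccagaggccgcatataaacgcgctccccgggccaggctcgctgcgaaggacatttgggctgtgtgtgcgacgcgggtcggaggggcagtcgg
The capitals in DUSP2 are 2 matches to GCGNGGGCG, which begin 103 and 93 bases before the start. Those in DUSP8 are 2 matches to TGACGTCA, 118 and 74 bases before it, and that in DUSP1 is 1 match to TGACGTCA, 125 bases before it. TGACGTCA reads the same on both strands. Of all 35116 promoters in the table, 1.85% held TGACGTCA and 9.43% held GCGNGGGCG, which was also found in DUSP14 and DUSP16. TGACGTCA thus stood in a gene that was higher with stimulation by its brightest probe set and in one that was lower. TGANTCA (7.71% of all promoters), CCGGAAGT (4.14%), GGAAAA (24.0%) and the CArG box (1.29%) had no match in these windows of the 8 genes.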

How the data were processed

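RNA of 4 Jurkat samples was measured on 4 arrays. Per the submitters' processing notes, the deposited table holds MAS5 values, a linear intensity for each probe set on each array. For its version, target and filters, the sources used here give nothing. The mean after trimming both ends was 500.07 on each array, so the authors' intensities share a target. The number of arrays limits the precision.

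Gene names came from the platform annotation (41097 probe sets with 1 symbol, 1801 with several, 11777 with none). Gene IDs of 41043 matched RefSeq (GRCh38.p14), which replaced 0 symbols. Log2 of the signal plus 14.1, the 25th percentile of all signals, was used for 26218 probe sets of 13717 genes whose highest signal reached 56.4, leaving out 62 array controls. Additive models of line and stimulation used limma (version 3.58.1, R 4.3.3), two-sided, with Benjamini-Hochberg adjustment over all genes, and were tested on simulated data. Python 3.11.15, pandas 2.3.3, numpy 2.4.6 and matplotlib 3.10.9 did the rest.

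All 10 members were named, with IKBKE, up to 3 genes per list with the largest mean response, and the 3 genes nearest in pattern. The members and lists were chosen with earlier results of these data known. The alternatives were other pseudocounts, quantile normalization, the median of probe sets, no filter, all probe sets, limma with a prior variance following the level, and another baseline.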

Additional observations from a re-analysis of the deposited data

Results flagged for a closer look

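Stimulation gave opposite directions in the 2 lines, with at least 2-fold in 1 of them, for 4 DUSP probe sets past the filter, where 7.17% of all named probe sets past the filter did so. By brightest probe sets this was 1 of 10 genes, DUSP10, where 6.78% of all genes did so. The difference was not tested because each value is 1 array. The response in the shIKKE line minus that in the control line was 2.12 on the log2 scale for the brightest DUSP10 probe set and 2.87 for its second one. It was 2.69 for the dimmer DUSP8 probe set (1.57 in the shIKKE line and -1.12 in the control line), whereas the brightest DUSP8 probe set was higher in both. It was 1.87 for the second DUSP16 probe set, whereas the brightest stayed within 2-fold in both lines.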

How the results depend on the processing

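The count of DUSP genes at least 2-fold changed by stimulation was 5 in the shIKKE line (5 to 7 over the alternatives) and 4 in the control line (4 to 6). Taking shIKKE solvent as the baseline instead, 5 were higher and 0 lower in the stimulated control line, with a median log2 difference of 0.75; such values include the difference between the lines. The count with solvent was 4 (3 to 5). The count with stimulation was 1 and became 0 with a pseudocount of 50, where DUSP8 had a log2 difference of 0.94. With the limma prior variance following the level, 4 members passed for stimulation and 2 for the lines; with a pseudocount of 50, 4 passed for stimulation and 0 for the lines, while 512 and 14 of all genes passed; the cause was not tested. The other limma alternatives left both counts at 0. With the median of probe sets, DUSP1 was at least 2-fold lower with stimulation in both lines (log2 -1.14 in the shIKKE line and -1.47 in the control line), DUSP6 was higher in the control line (1.21), DUSP6 differed by -0.38 between the lines with solvent, and DUSP10 was 1.40 higher in the shIKKE line. With a pseudocount of 1, DUSP1 (-1.01) and DUSP8 (1.10) passed 2-fold in the stimulated control line, and DUSP4 (1.17) did between the lines with solvent. No called member difference changed sign under another pseudocount, quantile normalization or the median of probe sets. Quantile normalization moved the median of all genes to -0.07 and -0.12 for stimulation in the shIKKE and control lines. No paired test over replicates was possible because each group has 1 array. The limma model does compare treatments within each line, through its line term. With 1 residual degree of freedom, no array could be left out of that test.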
